A study of Mus musculus with 8 samples.

Results

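The cartilage matrix mRNAs *Col2a1*, *Acan*, *Mia1* and *Col6a6*, were taken by name from the 67 target mRNAs measured in the knee joints of 8 inbred mouse strains. All 4 of 4 were present in the deposited values, and all 4 belonged to the first of the 2 probe panels. The strains are labelled by healing capacity. LG/J, MRL/MpJ and LGXSM-6 are healers, the intermediate healers are LGXSM-5 and LGXSM-35, and SM/J, C57BL/6J (C57BL6/J in the labels) and LGXSM-33 are non-healers. The LGXSM strains are recombinant inbred lines from a cross of LG/J with SM/J, so 6 of the 8 strains share their founders, and LG/J is also an ancestor of MRL/MpJ. Every mouse had a full-thickness defect made in the articular cartilage of the knee at 8 weeks of age. Per the study's methods the knees were taken months after this surgery, and no unoperated knee enters the comparisons. Per the study's methods, 3 to 4 mice per strain were used, and the homogenate was made from archived paraffin sections of the joint, which held articular cartilage and meniscus, the growth plate and bone under the cartilage, and the synovium and capsule around them. In a composite of this kind, fewer chondrocytes and less mRNA per chondrocyte cannot be told apart.

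Hyaline cartilage is a tissue of sparse chondrocytes in a matrix they secrete. Its fibrils are built mainly of type II collagen, the product of *Col2a1*, and are filled with aggrecan, the large aggregating proteoglycan encoded by *Acan*, whose bound water lets the tissue resist compression. *Mia1* (RefSeq symbol *Mia*, also called cartilage-derived retinoic acid-sensitive protein) encodes a small secreted protein made by chondrocytes. *Col6a6* encodes a chain of type VI collagen, the collagen of the fine filaments found around cells in many connective tissues, so of the 4 it is the least restricted to cartilage. The transcription factors encoded by *Sox9* and *Sox5* drive *Col2a1* and *Acan* in chondrocytes.

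The RefSeq annotation of GRCm38.p6, a C57BL/6J reference, places *Col2a1* at chr15:97975602-98004724, *Acan* at chr7:79053226-79115099, *Mia* at chr7:27179741-27181149 and *Col6a6* at chr9:105689417-105828246. The probe sequences of the assay were not used here. The promoters of 3 of the 4 genes were listed in RefSeq, and the 250 bases before each annotated start are shown as a description. No link between these sequences and the levels of the mRNAs was tested. The stretches are chr7:79052976-79053225 on the plus strand (*Acan*), chr7:27181150-27181399 on the minus strand (*Mia*) and chr9:105828086-105828335 on the minus strand (*Col6a6*), each written 5′ to 3′ along the gene, with capitals marking matches to the motifs searched. The *Col6a6* stretch lies partly inside the outer limits of the gene given above, and both of its marked matches fall in that part.
Acan: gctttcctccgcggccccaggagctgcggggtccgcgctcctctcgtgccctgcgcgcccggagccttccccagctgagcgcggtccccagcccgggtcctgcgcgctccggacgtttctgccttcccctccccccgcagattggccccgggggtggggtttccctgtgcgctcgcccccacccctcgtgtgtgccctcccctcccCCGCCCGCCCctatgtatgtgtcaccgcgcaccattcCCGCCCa
Mia: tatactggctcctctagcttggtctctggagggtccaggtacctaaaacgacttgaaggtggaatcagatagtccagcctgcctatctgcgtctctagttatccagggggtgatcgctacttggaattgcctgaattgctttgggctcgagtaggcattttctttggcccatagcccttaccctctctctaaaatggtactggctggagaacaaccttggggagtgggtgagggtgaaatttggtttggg
Col6a6: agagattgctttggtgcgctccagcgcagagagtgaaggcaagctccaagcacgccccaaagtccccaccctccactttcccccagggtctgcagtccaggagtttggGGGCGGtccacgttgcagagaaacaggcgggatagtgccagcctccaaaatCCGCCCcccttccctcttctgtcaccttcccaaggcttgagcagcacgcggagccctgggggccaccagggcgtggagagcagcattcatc
The motifs were GGGCGG (the GC box), ACAAAG and ACAATG (SOX-type motifs) and TATAAA (the TATA box), each on both strands. GGGCGG was matched 3 times in *Acan*, all on the opposite strand as CCGCCC, with 2 of these matches overlapping, and 2 times in *Col6a6*, once on each strand. No match to any of the 4 motifs lay in the *Mia* stretch, and none to the other 3 motifs in *Acan* or *Col6a6*. Of the 32851 promoters in the RefSeq table, 32.7% held GGGCGG in the same 250 bases, 16.5% ACAAAG, 10.7% ACAATG and 12.4% TATAAA. The GC content was 74.4% in *Acan*, 62.4% in *Col6a6* and 50.4% in *Mia*, against a median of 52.4% over all promoters.

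Expression was read with the QuantiGene Plex assay, in which probes on coded beads capture an mRNA and branched DNA amplifies the signal, with no reverse transcription. The first panel held 76 numbered signals, called assay replicates here, with 12 from each of LGXSM-6 and LGXSM-33, 8 from each of SM/J and LG/J, and 9 from every remaining strain. The methods describe repeat measurements of each mouse, but the labels do not say which signals came from one mouse. Consecutive signals lay close together in groups of 3 (2, 3 and 3 in the strains with 8 signals), 26 groups in all, called runs here. There were 3 or 4 runs per strain, as many as the mice per strain given in the methods. The study describes 3 replicate measurements, averaged for each mouse. A run is therefore most likely 1 mouse, though no label states this. Tests over assay replicates count the members of a run as independent and so give p-values that are too small, and each is therefore set beside the same test over the 26 run means. The methods set the number of bead events per target, but the spread over beads and the background level of each signal are not given, so no interval can be put on a single signal.

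The 4 mRNAs gave signals of very different size. *Col2a1* ranged from 527 to 13272 with a median of 3358.25 over the 76 assay replicates, the 2nd highest median of the 67 targets. *Acan* ranged from 26 to 1163 with a median of 272. *Mia1* lay between 7 and 124.5, around a median of 31, and 3 of its 76 signals were under 10. *Col6a6* lay between 5 and 44, around a median of 11, and 33 of its 76 signals were under 10. Signals of different probes cannot be set against each other as amounts of mRNA, but they show that *Col6a6* was read near the low end of the assay and *Col2a1* far above it.

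**Figure D1:**
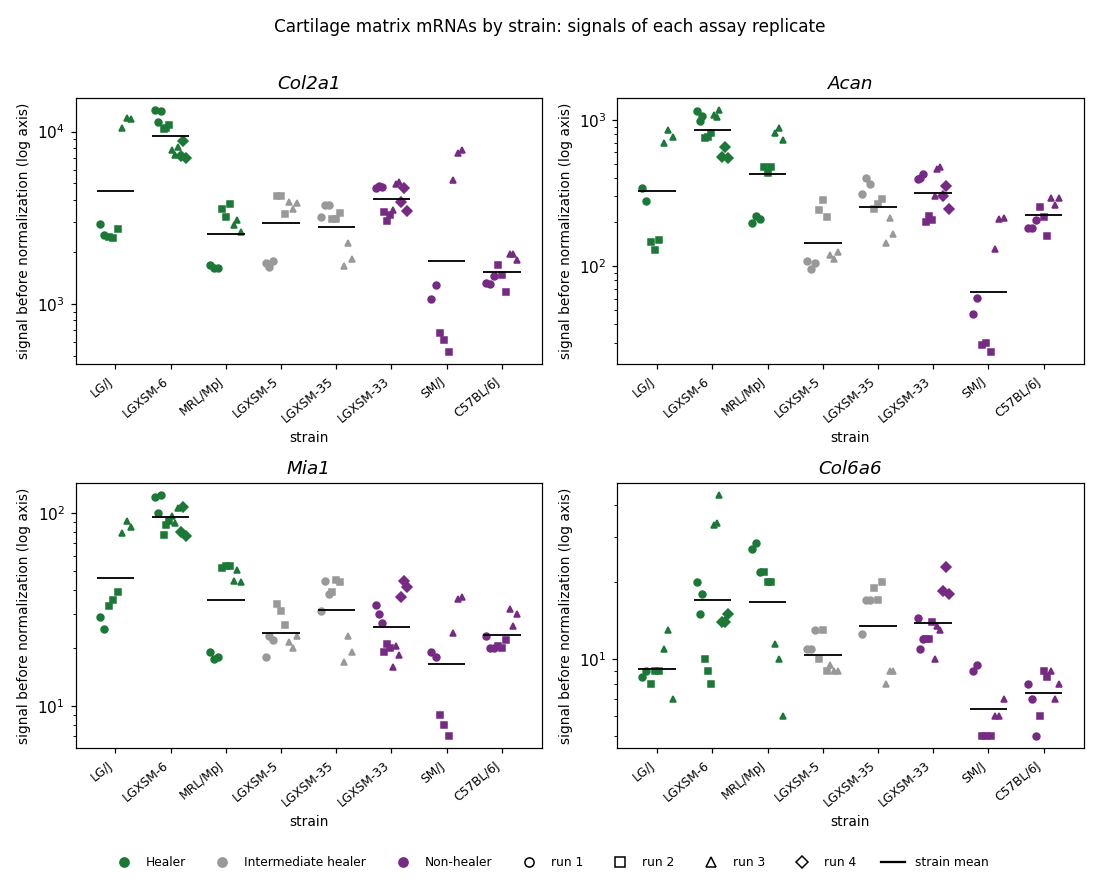
Signals before normalization of the 4 mRNAs (log axis) for each assay replicate, by strain on the horizontal axis. Colors mark the healing category, symbols the run of consecutive signals, and lines the geometric mean of a strain. The low squares of SM/J are the run in which the reference genes were also weak, and *Col6a6* lies between 5 and 44 in all strains.

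The normalized value of an assay replicate is the log10 signal left after a regression on the log10 signals of *Gapdh*, *Hprt1* and *Actb*, so that 0 is the level predicted from the reference genes. These genes accounted for 44.6% of the variance of the log10 signal in *Col2a1*, 61.1% in *Acan*, 65.1% in *Mia1* and 51.4% in *Col6a6*. Reference signals were not even across strains. In one run of SM/J, Signals 3 to 5, *Gapdh* was at 1471 to 1891 and *Hprt1* at 13 to 15, against 11336 to 18842.5 and 66.5 to 99 in the other 5 signals of that strain. The median signals of *Actb* and *Hprt1* were highest in LGXSM-6 (14508.5 and 322.5) and lowest in SM/J (2634.75 and 72.75). Differences between strains are given below on the log2 scale, from the normalized values.

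*Col2a1* was highest in LGXSM-6 and LG/J. Its normalized log10 value was 0.267 ± 0.184 (SD, n = 12 assay replicates) in LGXSM-6 and 0.212 ± 0.277 (n = 8) in LG/J. It was near 0 in LGXSM-33, at 0.0498 ± 0.159 (n = 12), and in SM/J, at 0.0171 ± 0.348 (n = 8). The 4 remaining strains all lay below 0. LGXSM-5 stood at -0.0866 ± 0.0762, C57BL/6J at -0.157 ± 0.0522, LGXSM-35 at -0.168 ± 0.0724 and MRL/MpJ at -0.212 ± 0.0236 (each n = 9). The lowest, median and highest assay replicate of *Col2a1* were -0.0142, 0.29 and 0.502 in LGXSM-6 and -0.00417, 0.0282 and 0.57 in LG/J. They were -0.494, -0.00933 and 0.403 in SM/J and -0.217, 0.084 and 0.259 in LGXSM-33. These 4 strains were broad, and the other 4 were narrow and wholly below 0. In MRL/MpJ the values were -0.244, -0.212 and -0.175, in LGXSM-35 -0.242, -0.181 and -0.0691, in C57BL/6J -0.233, -0.132 and -0.101 and in LGXSM-5 -0.208, -0.0391 and -0.0284. The lowest strain for the main cartilage collagen was thus a healer, and 2 healers stood at the top. LGXSM-6 exceeded MRL/MpJ by 1.59 (SE 0.26), a 3.02-fold difference, and no assay replicate of the 2 strains overlapped (limma adjusted p = 8.8e-07, and 0.0984 over run means). None of the 7 neighbouring pairs in this order differed at an adjusted p under 0.05 (limma, 0.121 to 0.942). The order of the extremes depended on the scaling. With the plain ratio to the reference genes LG/J was highest and SM/J the next, and without normalization C57BL/6J was lowest in place of MRL/MpJ.

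Within some strains the runs of *Col2a1* spread as widely as the strains did. In SM/J the 3 run means were -0.46, -0.021 and 0.373, so that the highest run exceeded the lowest by 2.77 on the log2 scale, or 6.8-fold. In LG/J they were 0.0282, 0.000584 and 0.546, a span of 1.81. In MRL/MpJ the 3 runs lay within 0.11 of each other. In 3 of the 8 strains the runs spanned more than the 1.59 that separated the highest and lowest strain means. Signals within a run were close, with 0.904% of the variance of *Col2a1* lying within runs, 69.5% between runs of a strain and 29.6% between strains.

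*Acan* followed a partly different order. It was highest in LGXSM-6, at 0.171 ± 0.0765 (n = 12), LG/J, at 0.14 ± 0.268 (n = 8), and LGXSM-33, at 0.136 ± 0.287 (n = 12). MRL/MpJ was near 0, at 0.0301 ± 0.104 (n = 9). C57BL/6J stood at -0.0737 ± 0.0673 (n = 9), SM/J at -0.102 ± 0.286 (n = 8) and LGXSM-35 at -0.112 ± 0.0777 (n = 9). The lowest level was in LGXSM-5, at -0.277 ± 0.133 (n = 9), where every assay replicate lay below every one of LGXSM-6. For *Acan* the lowest, median and highest assay replicates were 0.0853, 0.154 and 0.283 in LGXSM-6, all above 0, and -0.463, -0.197 and -0.13 in LGXSM-5, all below it. LGXSM-33 (-0.293, 0.15 and 0.547), LG/J (-0.191, 0.157 and 0.436) and SM/J (-0.586, -0.0192 and 0.171) reached to both sides of 0. The values were -0.0516, -0.0359 and 0.195 in MRL/MpJ, -0.168, -0.0626 and 0.018 in C57BL/6J and -0.223, -0.126 and -0.0221 in LGXSM-35. The -0.0221 was Signal 9, for which recomputation from the signals gave -0.107. LGXSM-6 exceeded LGXSM-5 by 1.49 (SE 0.27), or 2.8-fold (limma adjusted p = 1e-05, and 0.129 over run means), and the 2 strains kept these places under the ratio to the reference genes, whereas SM/J was lowest without normalization. The steps between neighbours in the order were 0.01 to 0.55, and none passed (adjusted p 0.145 to 0.979, limma). The non-healer LGXSM-33 held the highest run of all strains for the aggrecan mRNA and also runs near and below 0. Its 4 run means were 0.255, 0.0429, 0.495 and -0.247, a span of 2.47 or 5.53-fold.

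On the normalized scale *Mia1* had the largest share of variance between strains of the 4, whereas without normalization *Acan* had it (68.3% against 66.2%). *Mia1* was highest in LG/J, at 0.208 ± 0.169 (n = 8), and LGXSM-6, at 0.198 ± 0.0982 (n = 12), and SM/J came next at 0.078 ± 0.129 (n = 8). LGXSM-33 stood at -0.0324 ± 0.0745 (n = 12) and MRL/MpJ at -0.0883 ± 0.0865 (n = 9). LGXSM-35 at -0.112 ± 0.0545, C57BL/6J at -0.115 ± 0.0458 and LGXSM-5 at -0.158 ± 0.0944 (each n = 9) were lowest. For *Mia1* the lowest, median and highest assay replicates were 0.0116, 0.157 and 0.412 in LG/J and 0.0158, 0.223 and 0.303 in LGXSM-6. In LGXSM-5 they were -0.273, -0.165 and -0.00372, in C57BL/6J -0.166, -0.132 and -0.0311 and in LGXSM-35 -0.201, -0.104 and -0.0272. SM/J (-0.107, 0.0825 and 0.242), LGXSM-33 (-0.154, -0.0351 and 0.105) and MRL/MpJ (-0.202, -0.0786 and 0.0249) lay across 0. All assay replicates of LG/J and LGXSM-6 lay above 0, and all of C57BL/6J, LGXSM-35 and LGXSM-5 lay below it. One step between neighbours passed, LGXSM-6 over SM/J by 0.40 (adjusted p = 0.0338, limma), but it did not over run means (adjusted p = 0.454). LG/J and LGXSM-5 stayed the highest and lowest strain under the ratio to the reference genes, and without normalization LGXSM-6 was highest and SM/J lowest.

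*Col6a6* showed little order among strains. Its mean was highest in MRL/MpJ, at 0.108 ± 0.277 (n = 9), followed by LGXSM-33, at 0.0602 ± 0.0475 (n = 12), and LGXSM-6, at 0.0436 ± 0.138 (n = 12). LGXSM-35 stood at -0.0109 ± 0.0639 (n = 9), LG/J at -0.0354 ± 0.0769 (n = 8) and C57BL/6J at -0.046 ± 0.108 (n = 9). LGXSM-5, at -0.0809 ± 0.106 (n = 9), and SM/J, at -0.0862 ± 0.146 (n = 8), were lowest. For *Col6a6* the lowest, median and highest assay replicates were -0.317, 0.105 and 0.477 in MRL/MpJ, which held both the highest and the lowest value of all strains. They were -0.151, -0.00911 and 0.277 in LGXSM-6, -0.0385, 0.0553 and 0.135 in LGXSM-33 and -0.253, -0.0873 and 0.0943 in SM/J. Every strain reached to both sides of 0. The assay replicates of all 28 pairs of strains overlapped. The high mean of MRL/MpJ came from its first run, at 0.408, while its other runs were at 0.125 and -0.211, a span of 2.05 or 4.16-fold. With the ratio to the reference genes SM/J was highest and LGXSM-6 lowest, and without normalization LGXSM-6 was highest and SM/J lowest, so no order of strains held for this collagen across scalings.

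**Figure D2:**
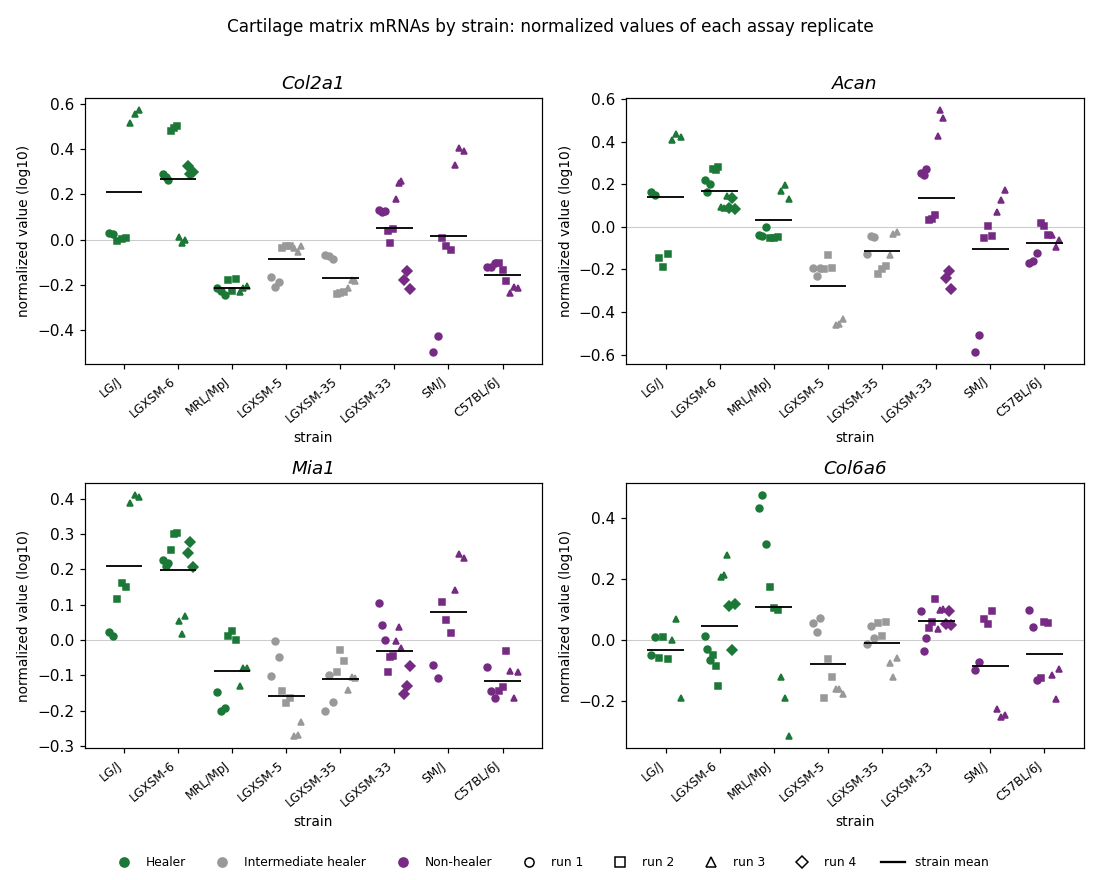
Normalized log10 values of the 4 mRNAs for each assay replicate, by strain on the horizontal axis. Colors mark the healing category, symbols the run of consecutive signals, and black lines the strain means. For *Col2a1* the SM/J runs reach from -0.46 to 0.373, and for *Mia1* all LG/J and LGXSM-6 points lie above 0.

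Whether strains differed at all was tested with limma's moderated F over the 8 strains. Over assay replicates all 4 mRNAs passed, with an adjusted p of 4.1e-08 for *Col2a1*, 5.5e-06 for *Acan*, 7.7e-14 for *Mia1* and 0.0282 for *Col6a6*. Of the 67 targets, 82.1% passed the same test, so most targets of the panels did as these 4. Over the 26 run means, 13.4% of the targets passed, and *Mia1* was the one of the 4 that did (adjusted p = 0.0126), with *Col2a1* at 0.144, *Acan* at 0.206 and *Col6a6* at 0.649. The call for *Mia1* over run means was lost with the ratio to the reference genes (adjusted p = 0.0678) and when LGXSM-6 was left out (adjusted p = 0.0924). That for *Col2a1* was gained when SM/J was left out (adjusted p = 0.0182). Without normalization all 4 passed over run means, with adjusted p-values of 0.014 for *Col2a1*, 0.00461 for *Acan*, 0.00728 for *Mia1* and 0.0396 for *Col6a6* (limma), where 56.7% of all targets passed.

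The share of variance lying between strains (H2, with assay replicates as the unit) was 67.7% for *Mia1*, 48.5% for *Col2a1*, 38.4% for *Acan* and 13.5% for *Col6a6*, against a median of 29.6% over the 67 targets. These shares fell to 57.5%, 29.8% and 21.5% for *Mia1*, *Col2a1* and *Acan* over run means, and the estimate for *Col6a6* was below 0. The median over the 67 targets was then 19.9%, near the value of *Acan*. With strain, run and signal as nested terms, 55.7% of the variance of *Mia1* lay between strains and 39.9% between runs. For *Acan* the shares were 21.5% and 76.6%. For *Col6a6* the share between strains was 0, that between runs 81.5% and that within runs 18.5%, the widest scatter inside runs of the 4 and that of the mRNA with the weakest signal. Over all 67 targets the median shares were 15.1% between strains and 55.3% between runs.

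**Figure D3:**
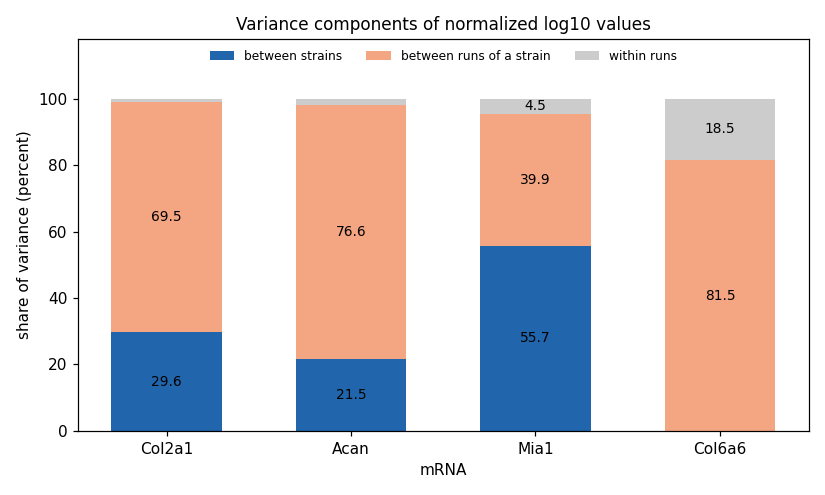
Share of the variance of normalized log10 values (percent, from 0) lying between strains, between runs of a strain and within runs, for each of the 4 mRNAs. The share between strains is 55.7% for *Mia1* and 0 for *Col6a6*, and the share within runs is under 5% for all but *Col6a6*.

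Among the 28 pairs of strains, 14 differed in *Col2a1*, 12 in *Acan*, 17 in *Mia1* and 2 in *Col6a6* at an adjusted p under 0.05 over assay replicates (limma, adjusted over all pairs and targets), where 29.5% of all pairs of all targets did. Assay replicates did not overlap in 8, 4, 6 and 0 of the 28 pairs, against 7.25% of all pairs of all targets. Over run means 4 pairs passed on the normalized scale, all in *Mia1*, against 2.88% of all pairs of all targets. Without normalization 3 passed in *Col2a1*, 7 in *Acan*, 5 in *Mia1* and 1 in *Col6a6*, where 6.66% of all pairs of all targets did. At an unadjusted p under 0.05 over run means the counts were 7, 4, 11 and 0, where 15.9% of all pairs of all targets passed. The 4 pairs in *Mia1* set a healer against a strain of another category. LGXSM-6 exceeded LGXSM-5 by 1.18 (SE 0.14 over assay replicates), C57BL/6J by 1.04 (SE 0.14) and LGXSM-35 by 1.03 (SE 0.14), with adjusted p-values over run means of 0.0166, 0.0381 and 0.0397. LG/J exceeded LGXSM-5 by 1.22 (SE 0.16), 2.32-fold, with an adjusted p over run means of 0.0329. With the ratio to the reference genes, 0 of the 28 pairs passed over run means in *Mia1*. The 2 pairs that passed over assay replicates in *Col6a6* were MRL/MpJ over SM/J, by 0.64 (SE 0.22), and over LGXSM-5, by 0.63 (SE 0.21), with adjusted p-values of 0.0182 and 0.018, and of 0.438 and 0.447 over run means.

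Whether the healing category went with the matrix mRNAs was tested on the 8 strain means, with the strain as the unit. All 4 mean differences were positive, as were 56.7% of those of all targets. The healers (n = 3) averaged a normalized log10 value of 0.089 ± 0.262 in *Col2a1* against -0.0301 ± 0.111 in the non-healers (n = 3). For *Acan* the means were 0.114 ± 0.0739 and -0.0133 ± 0.13, for *Mia1* 0.106 ± 0.168 and -0.0232 ± 0.0969, and for *Col6a6* 0.0386 ± 0.0716 and -0.024 ± 0.0756. On the log2 scale healers exceeded non-healers by 0.42 in *Acan* (95% interval -0.15 to 0.99), by 0.43 in *Mia1* (-0.21 to 1.07), by 0.40 in *Col2a1* (-0.52 to 1.32) and by 0.21 in *Col6a6* (-0.19 to 0.60). None passed, with limma adjusted p-values of 0.637, 0.637, 0.869 and 0.833, and in each mRNA the lowest healer lay below the highest non-healer. Of the 67 targets 0% passed, 4 had an unadjusted p under 0.05, and the median difference over all targets was 0.03. Exact permutation of 3 strains against 3, two-sided, cannot go below 0.1 and gave 0.2 for *Acan*, 0.3 for *Mia1*, 0.6 for *Col2a1* and 0.4 for *Col6a6*. The sign for *Col6a6* turned with the ratio to the reference genes (-0.40, where the median of all targets was -0.26) and with *Hprt1* alone (-0.60, median -0.54), and that for *Col2a1* with *Hprt1* alone (-0.18). The sizes also moved with the scaling. Without normalization the differences were 1.09 in *Col2a1*, 1.55 in *Acan*, 1.32 in *Mia1* and 0.67 in *Col6a6*, where the median of all targets was 0.68. *Col2a1* stood at 0.03 with the ratio and *Mia1* at 0.05 with *Hprt1* alone. Without MRL/MpJ the difference was 0.90 in *Col2a1* and 0.75 in *Mia1*, and without LGXSM-6 it was 0.10 and 0.28.

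On the normalized scale the 2 intermediate healers did not lie between the other categories in any of the 4 mRNAs, nor did they in 79.1% of all targets. Their mean was -0.127 in *Col2a1*, -0.195 in *Acan* and -0.135 in *Mia1*, and -0.0459 in *Col6a6*, below both the healer and the non-healer mean in each, as in 55.2% of all targets. LGXSM-5 and LGXSM-35 were each below 0 in all 4 mRNAs. They were below both with the plain reference ratio too, but between the categories in all 4 mRNAs without normalization. There, the mean log10 signals of healers, intermediate healers and non-healers were 3.68, 3.46 and 3.35 in *Col2a1*, 2.69, 2.28 and 2.22 in *Acan*, 1.73, 1.44 and 1.33 in *Mia1* and 1.14, 1.07 and 0.938 in *Col6a6*. This ordering was noticed after the values were seen and was not tested. The share of all targets in these positions is given only for the normalized scale, so they cannot be read as particular to the 4 mRNAs. Without normalization the median healer minus non-healer difference over all targets was itself 0.68.

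The differences varied among 3 pairs of a healer and a non-healer, of which MRL/MpJ and C57BL/6J are not of the cross. LG/J exceeded SM/J, its partner in the founding cross, by 0.81 in *Acan* (SE 0.30, adjusted p = 0.0368) and by 0.43 in *Mia1* (SE 0.16, adjusted p = 0.0356), where 28.4% of the targets passed for this pair. The *Col2a1* difference was 0.65 (SE 0.29, adjusted p = 0.0845) and that of *Col6a6* 0.17 (SE 0.22, adjusted p = 0.608). The recombinant healer LGXSM-6 exceeded the recombinant non-healer LGXSM-33 by 0.77 in *Mia1* (SE 0.13, adjusted p = 4.5e-06) and by 0.72 in *Col2a1* (SE 0.24, adjusted p = 0.0157), where 22.4% of the targets passed. *Acan* differed by 0.11 (SE 0.25) and *Col6a6* by -0.06 (SE 0.18) in that pair. MRL/MpJ and C57BL/6J differed in none of the 4 at the threshold, by -0.18 in *Col2a1* (SE 0.27), 0.34 in *Acan* (SE 0.29), 0.09 in *Mia1* (SE 0.15) and 0.51 in *Col6a6* (SE 0.21, adjusted p = 0.0572), where 17.9% of the targets passed. Several of these signs and calls depended on the scaling. MRL/MpJ minus C57BL/6J was 0.72 in *Col2a1* without normalization, and -0.064 in *Acan* and -0.40 in *Mia1* with the plain reference ratio. LG/J minus SM/J was -0.65 in *Col6a6* with that ratio, and LGXSM-6 minus LGXSM-33 was 0.29 in *Col6a6* without normalization. With the plain reference ratio the *Col2a1* difference of LGXSM-6 from LGXSM-33 was 0.20 (adjusted p = 0.570, limma) and the *Mia1* difference of LG/J from SM/J 0.31 (adjusted p = 0.255, limma), while *Col6a6* was lower in LGXSM-6 than in LGXSM-33 (-0.72, adjusted p = 0.0296, limma). Sizes moved as well. LG/J minus SM/J was 2.29 in *Acan* without normalization and 0.18 in *Col2a1* with the plain reference ratio. LGXSM-6 minus LGXSM-33 was 1.21 in *Col2a1* without normalization. Without normalization *Acan* differed by 1.42 between LGXSM-6 and LGXSM-33 (adjusted p = 3.4e-05, limma). *Col2a1* then differed by 1.35 between LG/J and SM/J (adjusted p = 0.0013, limma), and MRL/MpJ exceeded C57BL/6J by 0.94 in *Acan* (adjusted p = 0.0165, limma) and by 1.18 in *Col6a6* (adjusted p = 3.8e-05, limma). Without the weak SM/J run the *Mia1* difference of LG/J from SM/J was 0.40 (adjusted p = 0.0952, limma), and the *Col6a6* difference of MRL/MpJ from C57BL/6J, unchanged at 0.51, had an adjusted p of 0.0463 (limma). Within the 6 strains of the cross the *Acan* difference of LG/J from SM/J, unchanged in size, had an adjusted p of 0.0575 (limma). Assay replicates overlapped in all 12 of these comparisons. Over run means none of the 12 passed, the smallest adjusted p being 0.114 for *Mia1* in LGXSM-6 against LGXSM-33, where 1.49% of the targets passed.

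The differences between these pairs were tested as contrasts of contrasts, 3 for each mRNA. One of the 12 passed over assay replicates, where 14.4% of all such contrasts did. The *Mia1* difference of MRL/MpJ from C57BL/6J was smaller than that of LGXSM-6 from LGXSM-33 by 0.68 (difference -0.68, SE 0.20, adjusted p = 0.0115, limma), and over run means the adjusted p was 0.689. Over run means 0 of all 201 contrasts passed, and 19 had an unadjusted p under 0.05, none of them in the 4 mRNAs.

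**Figure D4:**
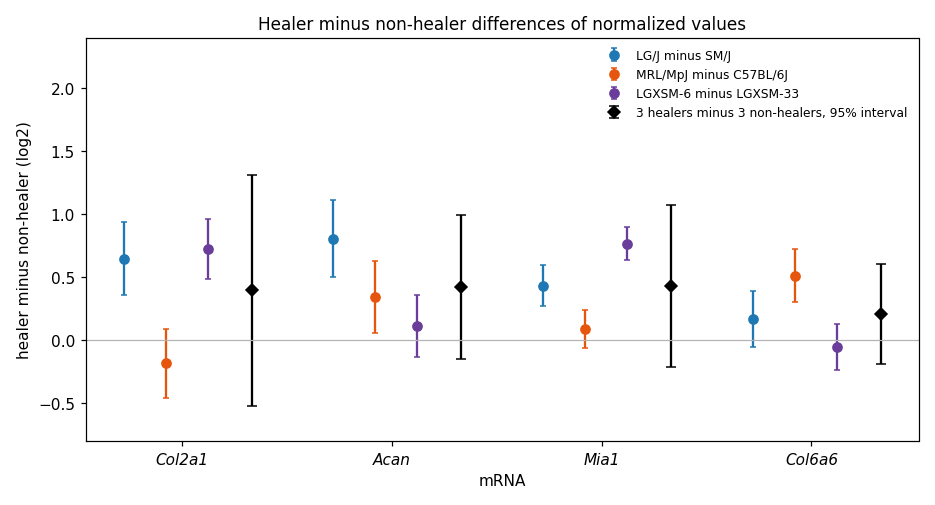
Healer minus non-healer difference (log2) of the 4 mRNAs for each of the 3 strain pairs, with bars of 1 SE over assay replicates, and for the 3 healers against the 3 non-healers (black), with the 95% interval over strain means. The black intervals include 0 for all 4 mRNAs, and the MRL/MpJ pair lies lowest in *Col2a1* and *Mia1* and highest in *Col6a6*.

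How the 4 mRNAs varied together is described here by correlations, with no test. Over the 8 strain means *Col2a1* and *Mia1* had a Pearson's r of 0.91 (Spearman's rho 0.71), *Acan* and *Mia1* of 0.70 (0.79), and *Col2a1* and *Acan* of 0.65 (0.64). When the 2 strains most distant from the median of the first-named mRNA were omitted, these values were 0.66, 0.47 and 0.21. With the plain reference ratio they were 0.78, 0.56 and 0.33 over all 8 strains. *Col6a6* had an r of -0.02 with *Col2a1*, 0.03 with *Mia1* and 0.64 with *Acan*, and the last became -0.15 under the plain ratio to reference signals. Without normalization the 3 values were 0.64, 0.65 and 0.80.

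Inside strains the 3 cartilage mRNAs moved together from run to run. After the strain mean was subtracted, r over the 26 run means was 0.78 between *Col2a1* and *Acan*, 0.75 between *Col2a1* and *Mia1* and 0.62 between *Acan* and *Mia1*. Without the 2 runs farthest from the median of the first-named mRNA the values were 0.69, 0.68 and 0.53, and before normalization they were 0.86, 0.81 and 0.78. *Col6a6* did not move with them, at -0.31 with *Col2a1*, -0.20 with *Acan* and -0.25 with *Mia1*, and at 0.01, 0.03 and 0.22 before normalization. Of its 76 signals 33 were under 10, and the part of weak signal in these values was not tested. In Signals 3 to 5 of SM/J its signal was 5 throughout, its lowest. Their normalized mean of 0.071 was nevertheless the highest run of that strain. The run that was highest for *Col2a1* was also highest for *Acan* in 5 of the 8 strains and for *Mia1* in 4, but for *Col6a6* in 1. In SM/J and LG/J the third run was the highest for *Col2a1*, *Acan* and *Mia1* alike. The runs of all 4 mRNAs share their wells and the reference signals used in the regression, so their values are not independent.

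**Figure D5:**
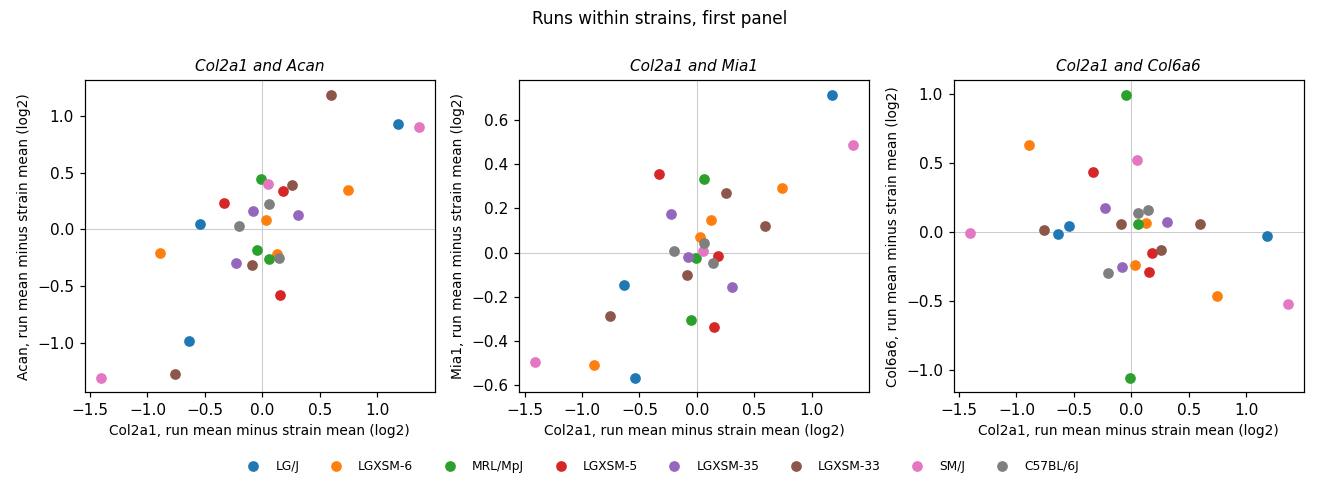
Run means minus the strain mean (log2) of *Col2a1* on the horizontal axis against *Acan*, *Mia1* and *Col6a6* on the vertical axes, for the 26 runs of the first panel, colored by strain. *Acan* and *Mia1* rise with *Col2a1* (r 0.78 and 0.75), and *Col6a6*, read near the low end of the assay, does not (r -0.31).

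The chondrocyte regulator *Sox9* was close to the 3 cartilage mRNAs in the same within-strain view, with r of 0.83 to *Acan*, 0.71 to *Col2a1* and 0.68 to *Mia1*, and 0.07 to *Col6a6*. The median r with the other 32 targets of the panel was 0.33 for *Acan*, 0.33 for *Col2a1*, 0.14 for *Mia1* and 0.19 for *Col6a6*. *Comp*, a pentameric glycoprotein of cartilage matrix, had 0.70 with *Acan*, 0.60 with *Col2a1* and 0.29 with *Mia1*. *Col10a1*, the collagen of hypertrophic chondrocytes, had 0.76 with *Acan*, 0.50 with *Col2a1* and 0.38 with *Mia1*. Among bone genes *Col1a1*, the main collagen of bone, had 0.64 with *Col2a1*, 0.54 with *Acan* and 0.22 with *Mia1*, and *Runx2*, an osteoblast regulator, 0.33, 0.29 and 0.11. For *Mia1*, *Cebpb*, encoding a transcription factor, was closer (0.71) than *Sox9*. The mRNAs closest to *Col6a6* within strains were *Il6*, encoding a cytokine (0.75), and *Tfap2a*, encoding a transcription factor (0.68).

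Across strain means, the pattern of *Col2a1* was most like those of *Mia1* (0.91), *Mmp13*, the collagenase of hypertrophic cartilage (0.91), and *Wisp1*, a secreted protein of the CCN family (0.85), and least like that of *Csnk2a1*, encoding a kinase subunit (-0.65). *Acan* was most like *Comp* (0.94), *Smad4*, the common signal carrier of the TGF-beta and BMP pathways (0.93), and *Sox9* (0.92), and least like *Vegfa*, encoding an angiogenic factor (-0.79). *Mia1* was most like *Col2a1*, *Runx2* (0.88) and *Wisp1* (0.87), and least like *Becn1*, an autophagy gene (-0.74). *Col6a6* was most like the aggrecanase *Adamts5* (0.90), *Stat6* (0.84) and the stromelysin *Mmp3* (0.76), and least like the collagenase *Mmp1a* (-0.62). These are the 3 highest and the lowest of 66 values over 8 points. With the ratio to the reference genes several fell far, to 0.21 for *Acan* with *Comp* and to -0.42 for *Col6a6* with *Stat6*, and *Col6a6* with *Mmp1a* turned to 0.66. The other 3 negative values turned positive without normalization, to 0.63 for *Csnk2a1*, 0.56 for *Vegfa* and 0.60 for *Becn1*.

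Of 9 other genes of cartilage and growth plate (*Comp*, *Col10a1*, *Sox9*, *Sox5*, *Ihh*, *Pthlh*, *Gdf5*, *Fgf18* and *Wisp1*), all 9 passed the strain test over assay replicates and 2 over run means, and the counts of this and the following lists stand against the 82.1% and 13.4% of all targets. Their median H2 was 26.1%, below those of *Mia1*, *Col2a1* and *Acan*. *Wisp1* had the largest H2, 56.1%, with LGXSM-6 highest and LGXSM-35 lowest (0.84 apart on the log2 scale), followed by *Ihh*, the hedgehog ligand of the growth plate, at 55.6%, with LG/J highest and LGXSM-5 lowest, the same extremes as *Mia1*. *Pthlh*, the ligand that holds growth plate chondrocytes in proliferation, had the smallest, 10.7%. Of the 3 bone genes all 3 passed and 1 over run means, *Bglap1* (osteocalcin), with an H2 of 71.9%, highest in LGXSM-6 and lowest in LGXSM-35. *Col1a1* had 17.1%. Of the 6 matrix-degrading enzymes 5 passed and 1 over run means, *Mmp9*, the gelatinase of osteoclasts, with an H2 of 81.7%, highest in C57BL/6J and lowest in LGXSM-5. *Mmp13* had 56.4% and the aggrecanase *Adamts4* 15.9%. Of the 4 neighbours in the matrix (*Col1a1*, *Col10a1*, *Comp* and the collagen receptor *Ddr2*, with an H2 of 42.2%) all 4 passed and 0 over run means. None of the genes in these lists differed between healers and non-healers at an adjusted p under 0.05 (limma), with median differences of 0.12, -0.02, 0.06 and 0.02 for the 4 lists and 0.41 for *Col2a1*, *Acan*, *Mia1* and *Col6a6*, beside 0.03 over all targets.

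The cartilage of the composite was described by 6 chondrocyte markers, *Col2a1*, *Acan* and *Mia1* themselves and *Comp*, *Sox9* and *Sox5*. The lowest strain mean signal of any of them was 10.8, and with no background level given, detection could not be tested. Their summed strain mean signals, before normalization, were 5796.5 to 13868.9 in the healers, 4767.1 to 5180.7 in the intermediate healers and 3328.1 to 7861.1 in the non-healers. These are sums of probe brightness and not of amounts, and the bright *Col2a1* probe alone gave 45.9% to 69.5% of them. *Comp*, *Sox9* and *Sox5* alone summed to 2408.2 to 3247.0, 1447.9 to 1992.3 and 1514.3 to 3364.2. On the normalized scale all 3 of them had a higher mean in healers than in non-healers, none past the test, where 56.7% of all targets did. The 3 markers of hypertrophic chondrocytes (*Col10a1*, *Ihh* and *Mmp13*) summed to 1257.2 to 2940.2, 910.7 to 917.4 and 466.3 to 1024.4 in the same order of categories, and all 3 had a higher normalized mean in healers, none past the test. Of the markers of other cells, the normalized mean was higher in healers for 1 of 3 for bone, 0 of 2 for osteoclasts and marrow (*Mmp9* and *Ccl3*) and 0 of 3 for fat (*Adipoq*, *Lep* and *Retn*). Their summed signals before normalization were 22061.3 to 33522.2 in healers and 18381.6 to 27667.4 in non-healers for bone, 362.8 to 816.8 and 187.2 to 525.5 for osteoclasts and marrow, and 34.2 to 77.9 and 39.7 to 80.5 for fat. The part of tissue composition in the strain differences of the 4 mRNAs was not tested.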

How the data were processed

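QuantiGene Plex signals of 4 mRNAs were compared among 8 strains, grouped by the healing capacity in the labels. The authors deposited log10 signals and normalized log10 values, which per the methods remain once the part predicted by the panel's reference signals is regressed out. A recomputation differed by at most 2.13e-05 for the 4 mRNAs, except in Signal 9 of LGXSM-35 (up to 0.0849, in *Acan*). There the deposited *Mia1* value, -0.107, equalled the recomputed *Acan* value, so values of that signal may stand beside the wrong mRNA. The methods state that background was subtracted, but not whether the deposited signals precede that step. Deposited strain averages and fold changes were not used, and 0 columns of values were left out. Of the 4 symbols, 3 matched RefSeq (GRCm38.p6) and *Mia1* matched an older name of *Mia*. Sequences are those of RefSeq.

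Strain and pair differences were tested with limma 3.58.1 in R 4.3.3, each panel fitted on its own, with Benjamini-Hochberg adjustment over 67 targets (and 28 pairs or 3 contrasts) and a threshold of 0.05. Healers and non-healers were compared by limma on 8 strain means. The nested shares of variance came from lme4 1.1.37, motif searches from Python 3.11.15 and plots from matplotlib 3.10.9. The fits were tried on simulated data with independent assay replicates and larger healer differences than those seen here. That trial does not cover the dependence inside runs. P-values over assay replicates measure a spread that is most likely technical. The 4 mRNAs and the gene lists were chosen with earlier results of these data known. Named besides them were the 3 targets most like and the 1 least like each mRNA across strain means, and in each list those passing the strain test with the largest and smallest H2. Other mRNAs named, such as *Il6*, *Cebpb* and *Tfap2a*, were chosen after their values were seen. Alternatives were other scalings, medians, a signal limit of 10, the 6 strains of the cross, leaving out strains, and other units of replication. Run means with 2, 3 and 3 signals, leaving out a strain over run means and the omission of the weak SM/J run were added after the data were seen.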

Additional observations from a re-analysis of the deposited data

Results flagged for a closer look

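One result of the 4 mRNAs differed between strain pairs. The *Mia1* difference between MRL/MpJ and C57BL/6J minus that between LGXSM-6 and LGXSM-33 was -0.68 on the log2 scale (SE 0.20, limma adjusted p = 0.0115 over assay replicates, 0.689 over run means). No single value stood apart by Dixon's criterion in 28 sets of values, the assay replicates of the strains with 8 or 9 signals and the 8 strain means of each mRNA. Because assay replicates came in close runs, a run that stood apart could hardly be found in this way.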

How the results depend on the processing

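The strain test over assay replicates was passed by *Mia1* under every alternative run. Its call was lost for the other 3 when consecutive signals were averaged in threes, with a share between strains of 40.2% for *Col2a1*, 27.7% for *Acan* and -2.56% for *Col6a6*, and over run means (2, 3 and 3 where there were 8 signals), with 29.8%, 21.5% and -6.74%. Pairs of strains called fell to 0 for *Col2a1*, *Acan* and *Col6a6* and to 8 for *Mia1* with averages in threes, and to 0, 0, 0 and 4 over run means. Tukey's method gave 9 for *Col2a1*, 6 for *Acan* and 0 for *Col6a6*. For *Col6a6* there were 4 with the plain reference ratio, 14 without normalization and 5 without the weak SM/J run. Shares of all pairs are not given for averages in threes, Tukey's method or these settings. The strain test over assay replicates was passed by 64 of the 67 targets without normalization and by 62 with the ratio, against 55 in the main setting. Over run means without normalization, the shares were 44.4% for *Col2a1*, 62.3% for *Acan* and 39.7% for *Col6a6*, all then passing, with 3, 7 and 1 pairs called, and with the ratio *Mia1* had 44.7%, no longer passing, and 0 pairs. Leaving out each strain in turn over run means gave 11.7% to 50.9% for *Col2a1* (passing without SM/J), 5.97% to 31.4% for *Acan*, 45.7% to 63.9% for *Mia1* (not passing without LGXSM-6) and -12.6% to 4.16% for *Col6a6*. Of the differences between strain pairs, the 1 in *Mia1* became 0 with averages in threes and over run means. *Acan* gained 1 with the ratio, a setting for which the share of all contrasts is not given. The sign turned in MRL/MpJ minus C57BL/6J for *Col2a1* without normalization (0.72) and with the ratio for *Acan* (-0.064) and *Mia1* (-0.40), and in *Col6a6* for LG/J minus SM/J with the ratio (-0.65) and LGXSM-6 minus LGXSM-33 without normalization (0.29). Healer minus non-healer turned with *Hprt1* alone for *Col2a1* (-0.18) and *Col6a6* (-0.60), and with the ratio for *Col6a6* (-0.40). Leaving out 1 strain gave 0.10 to 0.90 for *Col2a1*, 0.27 to 0.67 for *Acan*, 0.26 to 0.75 for *Mia1* and 0.09 to 0.35 for *Col6a6*. Medians over assay replicates gave 0.18 for *Col2a1* and 0.23 for *Acan*, and the 6 strains of the cross 0.69 for *Col2a1* and 0.057 for *Col6a6*. Likeness across strains turned for *Col2a1* with *Col6a6* (0.30 with the ratio, 0.64 without normalization) and for *Acan* with *Col6a6* (-0.15 with the ratio). Apart from the construction of these settings, the cause was not tested. No paired analysis was possible because the replicate numbers were given in accession order and pair no strains. Signals under 10, most frequent in *Col6a6*, limit its precision, and no label ties a run to a mouse.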
